A study of Mus musculus with 18 samples.

Results

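The genes described here are 10 secreted antagonists and intracellular feedback genes of Wnt signaling (Wif1, Sfrp1, Sfrp2, Frzb, Notum, Dkk1, Dkk2, Dkk3, Axin2 and Nkd2), of 55335 genes counted in bulk RNA-seq of mouse O9-1 neural crest (NC) cells. They were chosen by name, together with an observation in these data, the strong fall of Wif1 with FGF2 at d5. The d5 comparison of FGF2 with vehicle is therefore given as a description, with no test. The experiment asked how FGF2 and the co-activators Yap and Taz act on osteoblast differentiation of NC cells. O9-1 is 1 line, originally taken from mouse embryos at E8.5, and all libraries come from wild-type cells of that line in osteoblast differentiation medium. Ctrl+vehicle cells received scramble siRNA and no FGF2, Ctrl+FGF2 cells scramble siRNA and FGF2, and Y/T dKD+FGF2 cells siRNA to Yap and Taz and FGF2. Each group had 3 libraries at d2.5 and 3 at d5, giving 18 libraries in 6 groups. Without a group of knockdown and vehicle, the effect of the siRNA was measured only in the presence of FGF2. The labels give each day as a batch, so day and batch cannot be told apart, and groups were compared within a day. Nothing in the labels says that the 3 replicates were separate cultures, so p-values measure only the spread between these libraries.

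Wnt ligands bind Frizzled receptors and the co-receptors Lrp5 and Lrp6 on the receiving cell, which stabilises beta-catenin and lets it act with TCF/LEF factors on target genes. Wif1 and the Frizzled-related proteins Sfrp1, Sfrp2 and Frzb bind Wnt ligands outside the cell, Notum is a secreted enzyme that removes the lipid that ligands need, and Dickkopf proteins such as Dkk1 bind the co-receptors. Axin2, a scaffold of the complex that degrades beta-catenin, and Nkd2, which binds Dishevelled, act inside the cell, and Axin2 is a widely used readout of the pathway because it is a direct target that also restrains it. In the cranial sutures, Wnt signaling is known for its part in bone formation, and Axin2 marks stem cells of the suture.

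Gene counts per library lay between 10377151 and 14698525 (median 12330911). Levels are given as counts per 1000000 (CPM) scaled by TMM over all 18 libraries, and differences as log2 fold changes with their standard error (SE), each gene passing the test at an adjusted p under 0.05 (edgeR). The targets of the siRNA moved as labelled in every knockdown library. At d2.5 Yap1 was at 126 to 132 CPM in Ctrl+FGF2 and 65.3 to 69.6 in Y/T dKD+FGF2, and at 147 to 159 and 67.2 to 74.0 at d5. Wwtr1, which encodes Taz, was at 219 to 225 and 130 to 142 CPM at d2.5 and at 213 to 219 and 122 to 128 at d5. Vehicle cells of d2.5 had 138 to 142 CPM of Wwtr1, which overlapped the knockdown libraries, and 148 to 153 of Yap1, which did not. The mesenchymal marker Prrx1 reached 1281 to 2238 CPM, whereas Sox10, a defining marker of early NC cells, had 0 counts in all 18 libraries and Ngfr at most 5. Markers of endothelium, blood and epithelium summed to at most 5.61 CPM in any library, with Cdh5 and Lyz2 at 0, and those of neurons and glia to at most 26.5 CPM.

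Of the 10 genes, 8 passed the filter on low counts in each fit. At d2.5 Wif1, Frzb and Axin2 passed it through Ctrl+vehicle, with at most 11, 12 and 9 counts in the libraries of the other groups. Dkk2 passed it that day through the groups with FGF2, with 9 to 20 counts in the vehicle libraries. For these genes the filter thus favoured the direction of a difference from vehicle at d2.5. Dkk1 had 0 counts in all 18 libraries, which allows at most 0.0134 CPM. Sfrp2 had 0 counts in the 9 libraries of d2.5 and 1 to 7 in those of d5, where the groups overlapped. Neither gene was tested.

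**Figure D1:**
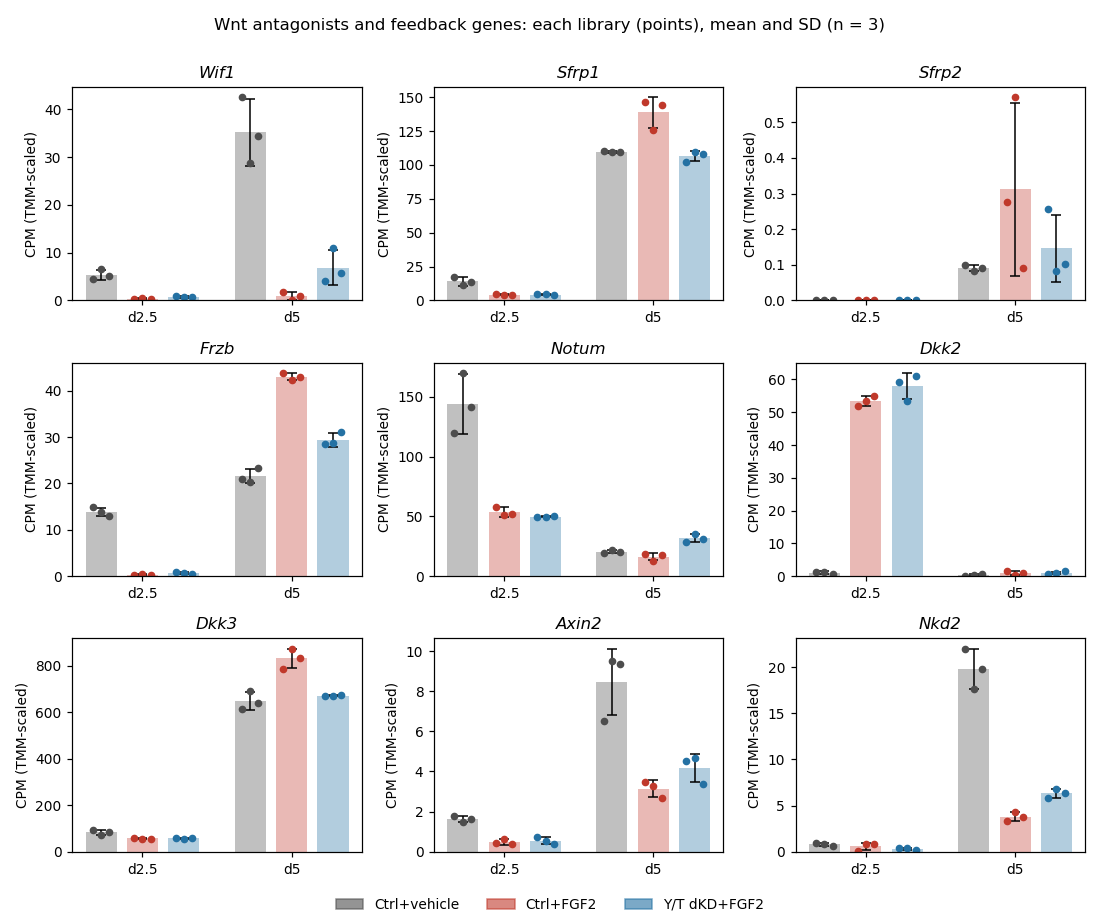
Level of 9 of the 10 genes in each library (points), in CPM on an axis that starts at 0 and differs between panels, with bars for the mean and error bars for the SD (n = 3), for Ctrl+vehicle (grey), Ctrl+FGF2 (red) and Y/T dKD+FGF2 (blue) on each day. Dkk1, at 0 throughout, is left out; Wif1 is highest in Ctrl+vehicle of d5 (28.7 to 42.5 CPM), and Dkk2 in the FGF2 groups of d2.5 (52.0 to 61.2 CPM).

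The region around the start of transcription is shown for 5 genes, Wif1, Axin2 and Nkd2, the genes lowest against vehicle with FGF2 at d5, and Frzb and Dkk2, whose response to FGF2 was largest at d2.5 in either direction. RefSeq's table held promoters of 7 of the 10 genes. Each run is 300 bases on GRCm38.p6, read 5′ to 3′ on the strand of the gene, from 250 bases before RefSeq's start. Capitals mark the last 50 bases, from the start onward, and any motif match within the lower-case stretch.
Wif1, chr10:121033754-121034053, plus strand: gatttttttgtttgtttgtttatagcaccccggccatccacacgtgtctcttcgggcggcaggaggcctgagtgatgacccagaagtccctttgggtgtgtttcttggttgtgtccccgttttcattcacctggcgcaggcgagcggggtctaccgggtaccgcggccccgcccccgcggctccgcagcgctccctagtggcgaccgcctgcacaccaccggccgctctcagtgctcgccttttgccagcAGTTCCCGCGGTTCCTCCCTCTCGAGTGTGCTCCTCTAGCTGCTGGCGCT
Axin2, chr11:108920099-108920398, plus strand: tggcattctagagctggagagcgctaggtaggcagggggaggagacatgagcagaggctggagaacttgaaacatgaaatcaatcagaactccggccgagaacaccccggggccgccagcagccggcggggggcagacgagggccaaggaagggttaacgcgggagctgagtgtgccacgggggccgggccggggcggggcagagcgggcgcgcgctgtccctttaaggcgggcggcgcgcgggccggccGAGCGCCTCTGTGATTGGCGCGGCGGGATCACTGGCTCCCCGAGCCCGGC
Nkd2, chr13:73847582-73847881, minus strand: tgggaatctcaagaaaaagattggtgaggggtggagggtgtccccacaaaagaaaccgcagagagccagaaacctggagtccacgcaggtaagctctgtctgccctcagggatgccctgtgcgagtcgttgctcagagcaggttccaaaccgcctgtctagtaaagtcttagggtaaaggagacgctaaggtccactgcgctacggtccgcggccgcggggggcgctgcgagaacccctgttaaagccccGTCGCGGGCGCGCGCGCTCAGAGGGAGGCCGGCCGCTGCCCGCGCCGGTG
Frzb, chr2:80447347-80447646, minus strand: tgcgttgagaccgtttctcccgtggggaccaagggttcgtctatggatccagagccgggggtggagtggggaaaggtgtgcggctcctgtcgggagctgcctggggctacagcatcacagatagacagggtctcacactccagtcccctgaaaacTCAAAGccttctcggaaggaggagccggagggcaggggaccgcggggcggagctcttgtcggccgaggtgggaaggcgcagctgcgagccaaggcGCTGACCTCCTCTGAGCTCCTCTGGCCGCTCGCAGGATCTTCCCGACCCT
Dkk2, chr3:132085042-132085341, plus strand: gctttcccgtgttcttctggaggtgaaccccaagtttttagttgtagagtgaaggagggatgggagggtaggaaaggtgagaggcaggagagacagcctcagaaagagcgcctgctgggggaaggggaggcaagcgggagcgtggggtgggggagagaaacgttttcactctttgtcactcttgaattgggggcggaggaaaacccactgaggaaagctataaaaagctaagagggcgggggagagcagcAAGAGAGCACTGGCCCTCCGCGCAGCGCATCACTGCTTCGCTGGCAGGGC
The 3 motifs were searched on both strands, and none overlaps another in these windows: the TCF/LEF core CTTTGA, present in 16.0% of 32851 RefSeq promoters of this length, the TEAD motif GGAATG, in 14.7%, and the AP-1 motif TGANTCA, in 7.81%. Among the 5 windows shown, Frzb alone held a match, 1 TCF/LEF core (as TCAAAG on its own strand). Of the windows not shown, that of Dkk1 held 2 TCF/LEF cores and that of Sfrp2 no match. The windows of Axin2, Nkd2 and Wif1 held 31, 26 and 25 CpG dinucleotides against a median of 7 over all promoters, and 18.4% of promoters held at least as many as Wif1. Frzb had 20 and Dkk2 had 11. Matches and their absence describe these letters only.

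Wif1 (ENSMUSG00000020218, chr10:121033960-121100650 on GRCm38) fell with FGF2 already at d2.5. Its level in Ctrl+vehicle was 4.49, 6.58 and 5.10 CPM, in Ctrl+FGF2 0.352, 0.509 and 0.267, and in Y/T dKD+FGF2 0.911, 0.700 and 0.632. Every vehicle library lay above every FGF2 library, and the knockdown libraries lay between both groups without overlap. The mean was 14.3-fold lower with FGF2 than with vehicle (log2 fold change −3.84, SE 0.27, adjusted p = 1.21e-13). The rise with the knockdown, 0.97 on the log2 scale (SE 0.44), did not pass the test (adjusted p = 0.111), on counts of 4 to 7 without and 8 to 11 with knockdown.

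At d5, the day used to choose the genes, Wif1 was at 42.5, 28.7 and 34.4 CPM in Ctrl+vehicle, its highest level in the data. It was at 1.84, 0.0814 and 0.898 CPM in Ctrl+FGF2, from 20, 1 and 10 counts, and at 4.0, 10.9 and 5.81 CPM in Y/T dKD+FGF2. The 3 groups did not overlap, and their order was that of d2.5: vehicle, knockdown with FGF2, then Ctrl+FGF2. With FGF2 the log2 fold change from vehicle was −5.24 (SE 0.37), and it was −6.17 without Ctrl+FGF2 replicate 1 and −4.66 without replicate 2.

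The knockdown raised Wif1 at d5 by 2.92 on the log2 scale (SE 0.49, adjusted p = 0.000178). Its baseline is the Ctrl+FGF2 libraries of the contrast that chose the genes, where Wif1 was low by the choice. A rise was therefore favoured in advance. The size of the rise rested on single libraries. The log2 fold change was 3.85 without Ctrl+FGF2 replicate 1, 2.34 without replicate 2 and 2.39 without Y/T dKD+FGF2 replicate 2, and it passed the test in each case. Knockdown cells stayed below vehicle, by −2.32 on the log2 scale (SE 0.25, adjusted p = 7.57e-07). That comparison shares its vehicle libraries, where Wif1 was high by the choice, with the contrast that chose the genes. The difference between the knockdown effects of both days, 1.95 on the log2 scale (SE 1.03), did not pass the test (adjusted p = 0.193), although it did when genes of low count were kept (adjusted p = 0.00745).

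The 6 osteoblast markers were compared with Wif1 library by library at d5, and they did not all follow it. Of Ctrl+FGF2, replicate 1 was highest and replicate 2 lowest in Wif1, Alpl, Ibsp and Sp7. Alpl (66.9, 46.2 and 50.6 CPM) encodes the bone alkaline phosphatase and Ibsp (47.0, 22.1 and 30.2 CPM) bone sialoprotein. Sp7 (52.7, 37.5 and 43.3 CPM) is a transcription factor. Bglap, which encodes osteocalcin, was at 5, 4 and 4 counts, so its replicates 2 and 3 differed only by scaling. Col1a1, the main collagen of bone, ran the opposite way (15505, 17329 and 17104 CPM), and Runx2, another transcription factor of osteoblasts, was highest in replicate 1 but lowest in replicate 3 (187, 178 and 172 CPM). Of Y/T dKD+FGF2, replicate 2 was highest in Wif1 and in Alpl, Ibsp, Bglap and Col1a1, but not in Sp7 and Runx2. In Ctrl+vehicle, Alpl and Col1a1 had the order of Wif1. Ibsp, Sp7 and Runx2 had the reverse order, lowest in replicate 1, where Wif1 was highest, and Bglap had neither order.

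Between the groups of d5 the markers also differed from each other. The mean of Col1a1, which makes up nearly all of the summed level of the list, was 31912 CPM with vehicle, 16646 with FGF2 and 21837 with FGF2 and the knockdown, and Alpl had the same order (162, 54.5 and 93.3 CPM). Ibsp was low with FGF2 but overlapped vehicle with the knockdown (114, 33.1 and 163 CPM), as did Bglap (2.69, 0.382 and 1.89 CPM). Runx2 went the other way, with every Ctrl+FGF2 library above every vehicle library (137, 179 and 199 CPM), and Sp7 overlapped between them and was highest with the knockdown (35.8, 44.5 and 70.1 CPM). In bulk RNA, fewer cells of a type and less RNA per cell cannot be told apart, and the part of these markers in the result for Wif1 was not tested.

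**Figure D2:**
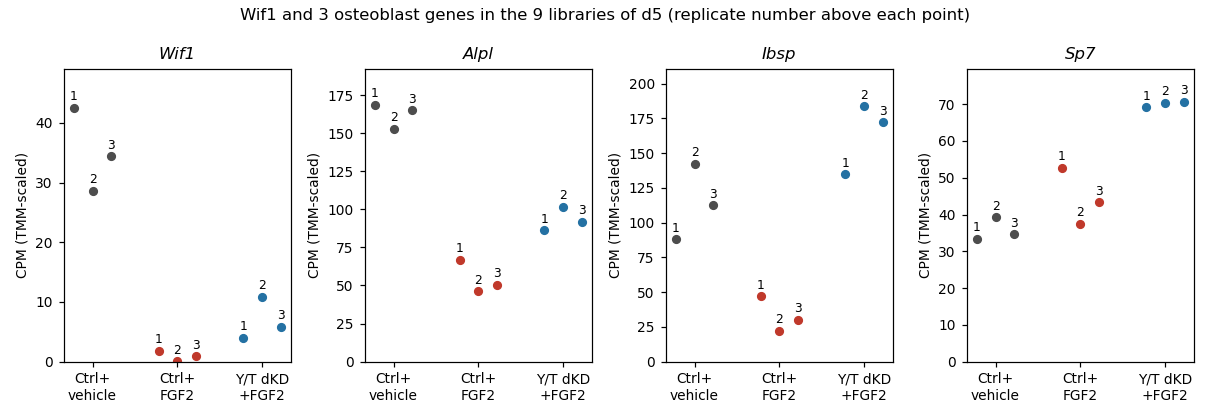
Wif1 and the osteoblast genes Alpl, Ibsp and Sp7 in the 9 libraries of d5, in CPM on axes that start at 0, with the replicate number above each point. In Ctrl+FGF2 (red) replicate 2 is lowest in the 4 genes shown (Wif1 0.0814 CPM), which does not hold for the markers Col1a1 and Runx2, not plotted, and Sp7 is highest in Y/T dKD+FGF2 (blue, 69.2 to 70.6 CPM), where Wif1 stays below vehicle (grey).

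Frzb (chr2:80411970-80447625), a Frizzled-related protein first known from cartilage, fell furthest of the 8 genes with FGF2 at d2.5 and stood above vehicle at d5. At d2.5 it was at 14.8, 13.7 and 13.1 CPM in Ctrl+vehicle, 0.211, 0.364 and 0.334 in Ctrl+FGF2 and 0.994, 0.622 and 0.553 in Y/T dKD+FGF2. The mean was 45.8-fold lower with FGF2 (log2 fold change −5.49, SE 0.21, adjusted p = 2.24e-20), with no overlap between the groups. At d5 it was at 21, 20.3 and 23.2 CPM in Ctrl+vehicle, 43.8, 42.3 and 42.8 in Ctrl+FGF2 and 28.4, 28.7 and 31.2 in Y/T dKD+FGF2, again with no overlap. FGF2 cells were thus above vehicle at d5, at a log2 fold change of 1.01 (SE 0.07).

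The knockdown lowered Frzb at d5 by −0.56 on the log2 scale (SE 0.06, adjusted p = 2.64e-06), to a level that was still above vehicle (0.45, SE 0.07, adjusted p = 5.79e-05). At d2.5 Frzb passed the filter through Ctrl+vehicle. The knockdown raised it by 1.21 (SE 0.44, adjusted p = 0.0408), on counts of 3 to 5 without and 7 to 12 with knockdown. That rise was lost when Ctrl+FGF2 replicate 1, 2 or 3 or Y/T dKD+FGF2 replicate 1 was left out (adjusted p = 0.145, 0.0596, 0.0783 and 0.227), when genes of low count were kept (0.0612), and with DESeq2 (0.0627). The knockdown effect on Frzb was lower at d5 than at d2.5 by −1.77 on the log2 scale (SE 0.41, adjusted p = 0.0021).

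Sfrp1 (chr8:23411502-23449632), another Frizzled-related protein, moved with FGF2 in the directions of Frzb on both days, by less. At d2.5 it was at 17.6, 11.3 and 13.4 CPM in Ctrl+vehicle, 4.58, 3.71 and 4.14 in Ctrl+FGF2 and 4.47, 4.51 and 4.19 in Y/T dKD+FGF2. It fell with FGF2 by −1.77 on the log2 scale (SE 0.14, adjusted p = 2.48e-12), and the knockdown groups overlapped (0.07, SE 0.19, adjusted p = 0.825). At d5 it was at 111, 109 and 110 CPM in Ctrl+vehicle, 146, 126 and 144 in Ctrl+FGF2 and 102, 109 and 108 in Y/T dKD+FGF2. FGF2 cells were highest (log2 fold change from vehicle 0.35, SE 0.05), and the knockdown lowered Sfrp1 by −0.39 (SE 0.05, adjusted p = 1.61e-05) to a range that overlapped vehicle. The difference of the knockdown effects between days, −0.46 (SE 0.21), did not pass the test (adjusted p = 0.114), but did without d2.5 Ctrl+vehicle replicate 1 (0.0436) or d5 Ctrl+FGF2 replicate 2 (0.0495), or when genes of low count were kept (0.0379).

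Notum (chr11:120653788-120661175), the secreted carboxylesterase, was the most abundant of the genes per length at d2.5. It was at 120, 170 and 141 CPM in Ctrl+vehicle, 58.0, 50.9 and 51.7 in Ctrl+FGF2 and 49.8, 49.4 and 50.2 in Y/T dKD+FGF2 on that day. FGF2 lowered it by −1.44 on the log2 scale (SE 0.08, adjusted p = 7.26e-17), and the knockdown changed it by −0.11 (SE 0.09), which did not pass the test (adjusted p = 0.384). At d5 Notum was at 19.2, 21.7 and 20.2 CPM in Ctrl+vehicle, 18.7, 12.9 and 17.3 in Ctrl+FGF2 and 28.7, 35.4 and 30.9 in Y/T dKD+FGF2. Knockdown cells were then the highest of the 3 groups. The knockdown raised it by 0.96 (SE 0.11, adjusted p = 2.67e-06) and the comparison of knockdown cells with vehicle gave 0.64 (SE 0.11), which passed the test. The knockdown effect on Notum was higher at d5 than at d2.5 by 1.07 on the log2 scale (SE 0.17, adjusted p = 2.21e-05).

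Dkk2 (chr3:132085292-132180304), a Dickkopf protein that binds the co-receptor Lrp6, was the gene of the 8 that rose with FGF2 at d2.5. It was at 1.31, 1.29 and 0.696 CPM in Ctrl+vehicle, 52.0, 53.3 and 54.9 in Ctrl+FGF2 and 59.3, 53.5 and 61.2 in Y/T dKD+FGF2. That day Dkk2 passed the filter through the groups with FGF2. The FGF2 groups stood apart from vehicle by a 48.6-fold higher mean (log2 fold change 5.55, SE 0.12, adjusted p = 5.1e-27), and overlapped each other (knockdown effect 0.11, SE 0.06, adjusted p = 0.159). At d5 it was low in all 9 libraries. It was at 0.101, 0.5 and 0.628 CPM in Ctrl+vehicle, 1.65, 0.326 and 1.08 in Ctrl+FGF2 and 0.766, 0.997 and 1.43 in Y/T dKD+FGF2, from 1 to 18 counts, and the FGF2 groups overlapped each other. The log2 fold change with FGF2 was 1.22 (SE 0.56), and that with the knockdown 0.06 (SE 0.46, adjusted p = 0.937). Knockdown cells stood above vehicle by 1.29 (SE 0.56), which did not pass the test (adjusted p = 0.0745). It did without Ctrl+FGF2 replicate 1 or 2 (0.0481 and 0.032), when genes of low count were kept (0.0205) and in the fit of all 18 libraries (0.0448).

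Dkk3 (chr7:112116017-112159057), a divergent member of the Dickkopf family, was the most abundant of the genes per length at d5. At d2.5 it was at 95.1, 73.3 and 84.5 CPM in Ctrl+vehicle, 61.4, 56.6 and 56.2 in Ctrl+FGF2 and 60.7, 56.9 and 59.1 in Y/T dKD+FGF2. FGF2 lowered it by −0.55 on the log2 scale (SE 0.06, adjusted p = 3.42e-09), and the knockdown groups overlapped (0.01, SE 0.07, adjusted p = 0.93). At d5 it was at 615, 690 and 640 CPM in Ctrl+vehicle, 787, 872 and 836 in Ctrl+FGF2 and 670, 670 and 673 in Y/T dKD+FGF2. As with Frzb and Sfrp1, FGF2 cells were highest at d5 (log2 fold change from vehicle 0.37, SE 0.04) and the knockdown lowered the gene, by −0.32 (SE 0.04, adjusted p = 1.88e-05), to the range of vehicle. The knockdown effects of both days differed by −0.33 (SE 0.09, adjusted p = 0.00666).

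The feedback gene Axin2 (chr11:108920349-108950783) was below vehicle with FGF2 on both days. At d2.5 it was at 1.79, 1.48 and 1.62 CPM in Ctrl+vehicle, 0.423, 0.655 and 0.401 in Ctrl+FGF2 and 0.745, 0.544 and 0.395 in Y/T dKD+FGF2. It fell with FGF2 by −1.73 on the log2 scale (SE 0.32, adjusted p = 2.03e-05), with no overlap, and the knockdown groups overlapped (0.18, SE 0.42, adjusted p = 0.812). At d5 it was at 6.53, 9.50 and 9.34 CPM in Ctrl+vehicle, 3.49, 3.26 and 2.69 in Ctrl+FGF2 and 4.51, 4.65 and 3.36 in Y/T dKD+FGF2. The log2 fold change with FGF2 was −1.42 (SE 0.18). With the knockdown it was 0.41 (SE 0.21), which did not pass the test (adjusted p = 0.142), and knockdown cells stayed below vehicle (−1.01, SE 0.17, adjusted p = 0.000132).

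Nkd2 (chr13:73818534-73847631) was near the detection limit at d2.5 and clearly expressed at d5. At d2.5 it had 2 to 14 counts per library, and neither the FGF2 effect (−0.43, SE 0.42, adjusted p = 0.367) nor the knockdown effect (−0.91, SE 0.54, adjusted p = 0.225) passed the test, though the latter did without Ctrl+FGF2 replicate 1 (0.0469). Knockdown cells were below vehicle (−1.35, SE 0.50, adjusted p = 0.0181), but not past the test without Y/T dKD+FGF2 replicate 3 (0.102) or with DESeq2 (0.0623). At d5 it was at 22, 17.7 and 19.7 CPM in Ctrl+vehicle, 3.31, 4.32 and 3.77 in Ctrl+FGF2 and 5.78, 6.81 and 6.42 in Y/T dKD+FGF2. The groups did not overlap, and their order was that of Wif1. The log2 fold change with FGF2 was −2.35 (SE 0.13), and the knockdown raised Nkd2 by 0.72 (SE 0.16, adjusted p = 0.00212), to a level below vehicle (−1.63, SE 0.12, adjusted p = 8.14e-09). The knockdown effects of both days differed by 1.63 (SE 0.55, adjusted p = 0.0341), a call that was lost when any of 5 libraries was left out, with 1.25 and an adjusted p of 0.199 without d2.5 Ctrl+FGF2 replicate 3.

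**Figure D3:**
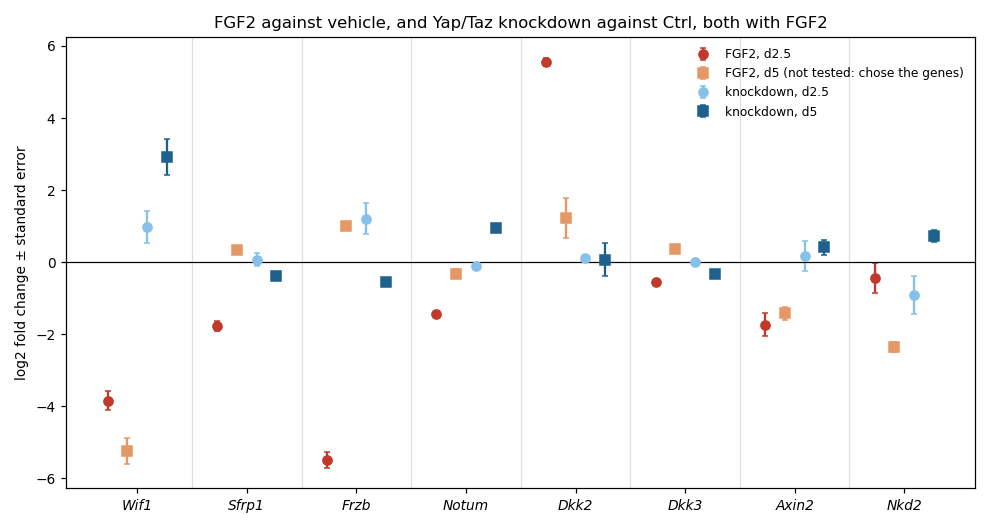
Log2 fold change with its standard error for the 8 genes that passed the filter, for FGF2 against vehicle and for knockdown against Ctrl, both with FGF2, at d2.5 (circles) and d5 (squares). FGF2 at d5 (orange) chose the genes and was not tested; Frzb moves from −5.49 at d2.5 to 1.01 at d5, and the knockdown at d5 (dark blue) lies between −0.56 (Frzb) and 2.92 (Wif1).

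Counted over the list, FGF2 at d2.5 lowered 6 of the 8 tested genes (Wif1, Sfrp1, Frzb, Notum, Dkk3 and Axin2) and raised 1 (Dkk2), against 34.1% of all 13677 genes called lower and 33.5% called higher. Their median log2 fold change was −1.58, and that of all genes 0.00. Wif1, Frzb and Axin2 were among the 8 through Ctrl+vehicle, and Dkk2 through the groups with FGF2. Each was high where it passed the filter, so the filter favoured its direction in this count. The knockdown at d2.5 raised 1 of 8 (Frzb) and lowered 0 in edgeR, where 10.8% of all genes were called higher and 13.6% lower. Frzb, Wif1 and Axin2 were among the 8 through Ctrl+vehicle, which is not part of this comparison. DESeq2 called 0 of the 8 at its adjusted p, where it called 2413 of all 13677 genes. The median was 0.09, against 0.00 over all genes.

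At d5 the knockdown raised 3 of 8 (Wif1, Notum and Nkd2) and lowered 3 (Frzb, Sfrp1 and Dkk3), where 15.6% of 13304 genes were called higher and 16.1% lower, with a median of 0.24 against 0.00. In knockdown cells with FGF2 set against Ctrl+vehicle at d2.5, 7 of the 8 were lower and 1 higher (Dkk2), with 35.7% of all genes lower and 34.1% higher. As for FGF2 at d2.5, the filter favoured the direction of Wif1, Frzb, Axin2 and Dkk2 in this count. At d5 knockdown cells had 3 of 8 lower (Wif1, Axin2 and Nkd2) and 2 higher (Frzb and Notum), with 21.1% lower and 20.7% higher over all genes. The knockdown effect differed between days for 4 of 8, higher at d5 for Notum and Nkd2 and lower for Frzb and Dkk3, where 11.6% of 14198 genes were higher and 9.35% lower. The call for Nkd2 was lost when any of 5 libraries was left out. All comparisons of a day share libraries. Both d5 comparisons, and the comparison of the knockdown effect between days, share some with the contrast used to choose the genes. By that choice Wif1 was low with FGF2 and high with vehicle at d5.

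Other genes moved along the same lines at d2.5. The 6 osteoblast markers summed to 13247 to 13407 CPM in Ctrl+vehicle, 2299 to 2426 in Ctrl+FGF2 and 2163 to 2299 in Y/T dKD+FGF2, a sum that is nearly all Col1a1 (means of 12636, 2203 and 2009 CPM). Each of the 6 was lower in every Ctrl+FGF2 library than in every vehicle library. With the knockdown Ibsp (41.1 and 78.8 CPM without and with it), Sp7 (26.1 and 36.0) and Runx2 (92.1 and 98.7) were higher in every library, Col1a1 was lower in every library, and Alpl and Bglap overlapped near 0. The 4 chondrocyte markers summed to 540 to 760, 39.9 to 44.9 and 48.4 to 49.9 CPM, led in vehicle by Col2a1, the collagen of cartilage, at 362 to 575 CPM against 0.668 to 1.27 with FGF2. Acta2, a gene of contractile and mesenchymal cells, was at 157 to 220, 20.4 to 21.5 and 12.4 to 14.2 CPM at d2.5 and at 1952 to 2055, 2598 to 2979 and 2037 to 2188 at d5, while the skeletal muscle regulators Myod1 and Myog were at 0. The part of these markers in the results for the antagonists was not tested.

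Per kilobase of exon, the scale on which genes can be compared, the order of the levels changed with day and treatment. In Ctrl+vehicle of d2.5 it was led by Notum (59.7 ± 10.4 CPM per kb, SD, n = 3) and Dkk3 (25.1 ± 3.3), followed by Frzb, Sfrp1, Wif1, Axin2, Dkk2 and Nkd2, where Sfrp1 overlapped with Wif1, Axin2 with Dkk2 and Dkk2 with Nkd2. With FGF2, Dkk2 moved to the third place (14.4 ± 0.39), and Wif1, Nkd2, Frzb and Axin2 followed Sfrp1 at means of 0.0895 to 0.155 that overlapped between neighbours. In Ctrl+vehicle of d5 Dkk3 led (193 ± 11.3), and no neighbours overlapped among Dkk3, Sfrp1, Wif1 (14.5 ± 2.87), Notum, Frzb, Nkd2 and Axin2. With FGF2 at d5 Wif1 was in the seventh place (0.387 ± 0.36) and overlapped with both Axin2 and Dkk2. In Y/T dKD+FGF2 of d5 it was in the fifth place (2.84 ± 1.47), apart from Frzb above and Nkd2 below.

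**Figure D4:**
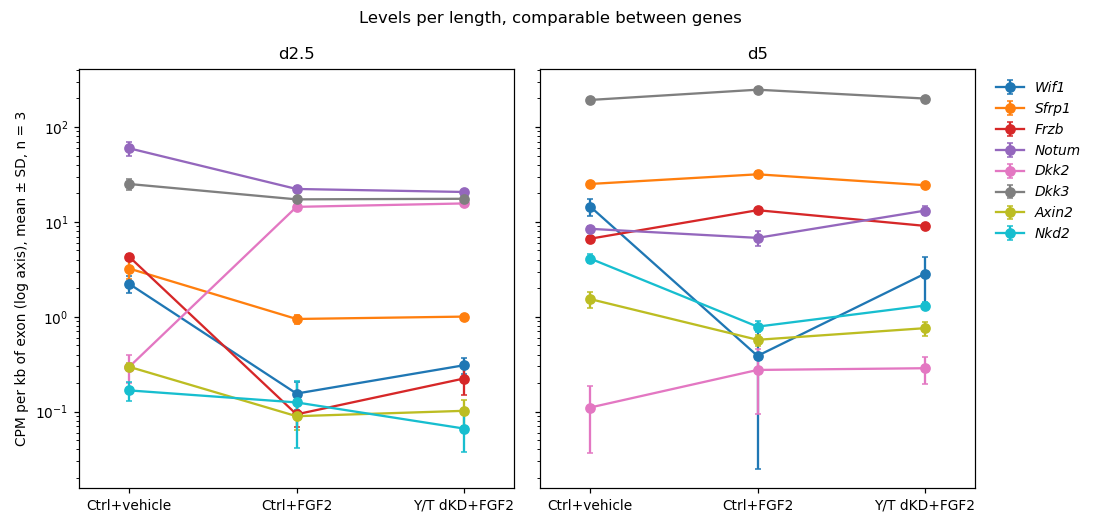
Mean level per kilobase of exon with its SD (n = 3, log axis, CPM per kb) of the 8 tested genes in the 3 groups of d2.5 and of d5, with lines joining the groups of a gene. Dkk2 rises from 0.297 to 14.4 with FGF2 at d2.5, and Wif1 goes from 14.5 to 0.387 at d5 and stands at 2.84 with the knockdown.

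Over the 18 libraries, the genes with the log2 CPM most like that of Wif1, among 11731 whose log2 CPM averaged 1 or more, were P2ry10b (Pearson r = 0.93), Lman1 (0.93), Serp1 (0.92), Snai2 (0.92) and Arcn1 (0.91). These values are descriptions, since the libraries share day and treatment. Lman1, a cargo receptor between endoplasmic reticulum and Golgi, spanned a much narrower range than Wif1, with means of 328, 228 and 253 CPM in the 3 groups of d2.5 and 396, 283 and 330 at d5. Snai2, a transcription factor of NC cells and mesenchyme, was at 66.7, 49.5 and 42.0 CPM and at 87.1, 47.2 and 69.2.

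The rest of the Wnt pathway was described by 77 genes in 5 lists. The counts of each list stand beside the shares over all genes. FGF2 at d2.5 raised 33.5% and lowered 34.1% of 13677 genes, and the knockdown at d5 raised 15.6% and lowered 16.1% of 13304. Among 16 other antagonists and their co-receptors, 6 passed the filter at d2.5, and FGF2 raised 3 and lowered 3, with a median log2 fold change of −0.30. Draxin, a secreted antagonist that guides axons, had 81 to 114 counts in Ctrl+vehicle and 0 in the Ctrl+FGF2 libraries, so it was at least 95.2-fold lower with FGF2, taking 3 counts over the group as the limit. Tpbg, a membrane protein that inhibits Wnt signaling, rose by 1.43 (SE 0.05). At d5 the knockdown raised 4 of 6 in this list, the other 2 not passing the test, with Draxin at 0.97 (SE 0.26, adjusted p = 0.00732).

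Of 9 other feedback and target genes, 3 were tested at d2.5, and FGF2 raised Znrf3, a ligase that removes Frizzled receptors (0.69, SE 0.10), and lowered Dact1, a binding partner of Dishevelled (−1.86, SE 0.17), and 1 more. At d5, 5 were tested, and the knockdown raised 2 and lowered 1. Nkd1, the paralog of Nkd2, was lowered, from 4.19 ± 0.61 to 1.41 ± 0.11 CPM (−1.58, SE 0.22, adjusted p = 2.3e-05), and so moved opposite to Nkd2. Tnfrsf19, a target of beta-catenin, was raised by 1.85 (SE 0.50, adjusted p = 0.00798). Of 11 genes of the signal transduction core, all tested, FGF2 at d2.5 raised 3 and lowered 4, of which Tcf7l1, a TCF that mainly represses, fell most (−1.62, SE 0.07). The knockdown at d5 raised 3 and lowered 3 of them, with Ctnnb1, which encodes beta-catenin, at 0.21 (SE 0.03) and Tcf7l1 at −0.46 (SE 0.06).

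Of 19 Wnt ligands, 4 were tested at d2.5 and 7 at d5. FGF2 at d2.5 lowered 2 of 4, the other 2 not passing the test, and Wnt4 fell from 25.1 ± 2.97 to 2.21 ± 0.29 CPM (−3.51, SE 0.13, adjusted p = 1.24e-20). The knockdown at d5 raised 5 and lowered 1, with a median of 0.94. Wnt10b, a ligand known to promote osteoblasts, rose from 2.28 ± 0.18 to 7.14 ± 0.79 CPM (1.63, SE 0.19, adjusted p = 2.76e-06), and Wnt5a, a ligand of pathways without beta-catenin, fell from 19.4 ± 1.4 to 9.33 ± 0.60 CPM (−1.06, SE 0.10, adjusted p = 1.71e-07). Of 22 receptors, co-receptors, agonists and genes of ligand secretion, 17 were tested at d2.5. FGF2 lowered 13 and raised 1, where 34.1% of all genes were called lower and 33.5% higher. The median of the list was −0.70. Fzd1 fell from 72.2 ± 2.6 to 17.6 ± 0.35 CPM (−2.05, SE 0.06). The knockdown at d5 raised 6 and lowered 7 of 18, with Fzd3 at 0.70 (SE 0.16) and Fzd4 at −1.28 (SE 0.19).

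**Figure D5:**
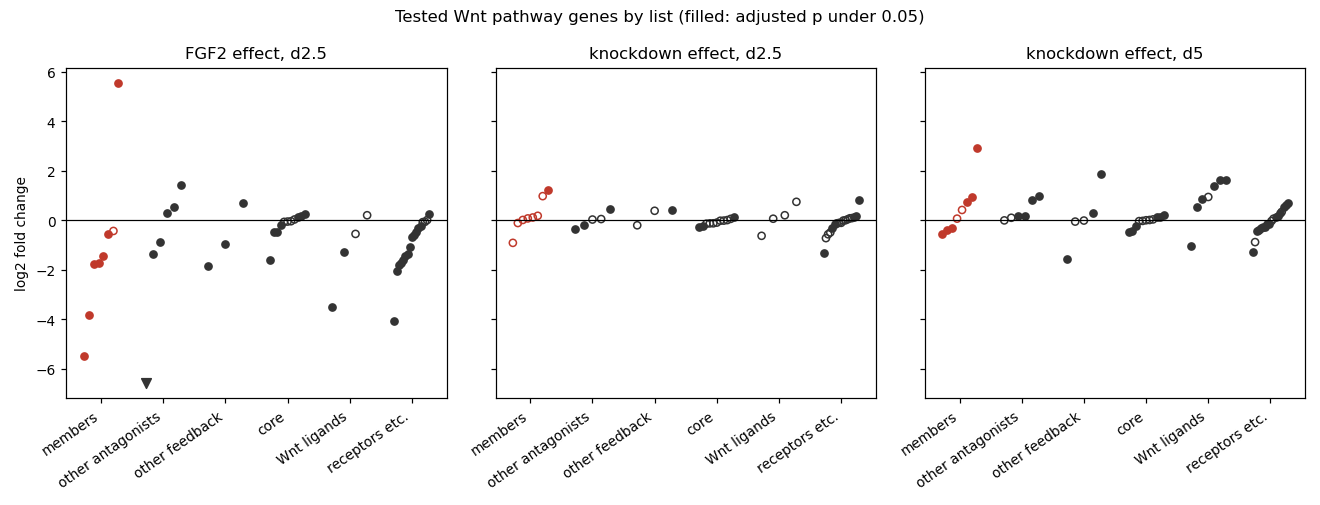
Log2 fold change of every tested gene of the 10 antagonists and feedback genes (red, members) and of the 5 other lists of the Wnt pathway (black), for the FGF2 effect at d2.5 and the knockdown effects at d2.5 and d5, filled where the adjusted p is under 0.05. The triangle is Draxin at its bound for FGF2 at d2.5, and Draxin, at 0 to 1 counts in both groups, is left out for the knockdown at d2.5. In the receptor list FGF2 at d2.5 lowered 13 of 17, where 34.1% of all genes were called lower.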

How the data were processed

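Poly(A) RNA of 18 libraries of mouse O9-1 cells was sequenced. The authors deposited raw counts per gene for each library in 3 strand columns that have STAR's layout, with mm10, STAR and featureCounts among the names in the submitters' processing notes. No step of normalization had been applied. The reverse-strand column, with 96.0% to 96.6% of the stranded counts, was used, and entries that name no gene (27.0% to 34.4% of a library) were left out. Reads that map to several places were not counted, which can lower genes with close copies. Of 55335 identifiers, 55154 matched GENCODE M21 on GRCm38, all 10 members with the same version, and names, coordinates and exon lengths come from there. Promoters come from RefSeq.

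The quasi-likelihood test of edgeR 4.0.16 (R 4.3.3) was run on the counts after filterByExpr with TMM scaling, in 1 fit of 9 libraries per day and, for the knockdown effect between days, 1 fit of all 18, with Benjamini-Hochberg adjustment over all genes tested. Each standard error is the log2 fold change, without its sign, divided by the root of F. The script was tested on simulated data. The members and gene lists were chosen with earlier results of these data known. Named are the 10 members, the called gene of each list with the largest rise and fall (log2 CPM averaging 0 or more), and the 5 genes most correlated with Wif1 (log2 CPM, prior count 2). Text on other genes keeps to FGF2 at d2.5 and the knockdown at d5. Alternatives were RLE factors, other filters, DESeq2 1.42.0, unstranded counts, a replicate block, other libraries in the fit and leaving out each library. A count of 0 was taken to allow 3 counts.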

Additional observations from a re-analysis of the deposited data

Results flagged for a closer look

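Of the members, 3 had opposite differences between FGF2 and vehicle on both days, with every FGF2 library below every vehicle library at d2.5 and above at d5. The log2 fold change was −1.77 at d2.5 and 0.35 at d5 for Sfrp1, −5.49 and 1.01 for Frzb, and −0.55 and 0.37 for Dkk3. This difference between days was not tested, since the d5 contrast chose the genes. The knockdown effect differed between days in the test of the difference itself, at d5 minus d2.5, for Frzb (−1.77), Notum (1.07), Dkk3 (−0.33) and Nkd2 (1.63). The call for Nkd2 was lost when any of 5 libraries was left out, and Frzb had at most 12 counts per library with FGF2 at d2.5. The days are also the batches.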

How the results depend on the processing

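No member changed direction under any alternative in a called comparison, and at d5 the 6 calls of the knockdown held under each in which the gene was tested, which leaves out Wif1 where 10 counts were required in every library. Beside leaving out libraries, 361 values for single members were labelled unchanged, 4 gained and 3 lost the call. The 361 include values of the untested FGF2 effect at d5, which were judged by direction and size of the shift and not by the threshold. Requiring 10 counts in every library left only the members Sfrp1, Notum and Dkk3 in the test at d2.5 and between days. Of these, 3 were called for FGF2 at d2.5 and 3 for knockdown cells compared with vehicle that day, all lower. For the knockdown between days 2 were called. Over all genes, 8522 of 12178, 8815 of 12178 and 2979 of 11571 were called in these comparisons. The single call of the knockdown at d2.5, Frzb, went to 0 calls with no filter and with DESeq2. With at least 10 counts in every library or with only the 2 groups compared, Frzb was not tested, and 0 were called. With 1 library left out, the number called was between 0 and 1. With the replicate block the members called were 7, 1, 6, 8, 5 and 4 (FGF2 at d2.5, knockdown at d2.5 and d5, knockdown against vehicle at d2.5 and d5, knockdown between days), as many as without it. In the same order, 9180, 3226, 4354, 9518, 5681 and 3059 of all genes were called, of 13677 tested at d2.5, 13304 at d5 and 14198 between days. Same-numbered libraries did not deviate together in the median (correlation −0.020 at d2.5 and −0.023 at d5). At d5 their correlations ranged from −0.103 to 0.259, against −0.250 to 0.106 between libraries of different number. With 9 such pairs per day, this check cannot decide whether the numbers pair the libraries. Low counts limit Wif1, Frzb, Axin2 and Nkd2 at d2.5 with FGF2 and Dkk2 at d5, and differences there may not be detectable at this depth.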
